A study of Mus musculus with 6 samples.

Results

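The granule and effector genes of granulocytes and mast cells, 10 in number, were followed on all 6 arrays of a series from the mouse embryo: S100a8, S100a9, Mpo, Elane, Prtn3, Ctsg, Cpa3, Ms4a2, Hdc and Ms4a3. Each had exactly 1 probe set that the platform annotation gives to a single gene. They are 10 of 19937 genes measured, and all 10 entered the test, since no filter on level was used. The source was CD1 embryos at E11.5 (E for embryonic day), whose aorta, gonads and mesonephros were dissociated in 0.1% collagenase. From it, cells with CD31 on their surface and without CD45 and Ter119 were sorted and separated into a c-kit-negative and a c-kit-positive population, the only difference between the groups. Each population has 3 samples, called biological replicates, with 1 array each; no genetic change or treatment beyond dissection and sorting is given, and neither the number nor the sex of the embryos in a sample is stated, so p-values measure the spread between these samples.

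Neutrophils fill their granules in sequence while they mature. The azurophil granules come earliest, at the promyelocyte stage, with myeloperoxidase (Mpo), an enzyme that makes hypochlorous acid, and the serine proteases neutrophil elastase (Elane), proteinase 3 (Prtn3) and cathepsin G (Ctsg). Mast cells store carboxypeptidase A3 (Cpa3), a metalloprotease, together with histamine, which histidine decarboxylase (Hdc) makes from histidine, and they are triggered through the high-affinity IgE receptor, whose beta chain is Ms4a2. Ms4a3, a relative of Ms4a2 in the membrane-spanning 4A family, marks granulocyte and monocyte progenitors. S100a8 and S100a9 are calcium-binding proteins that pair as calprotectin in the cytosol of neutrophils and monocytes, so not every one of the 10 proteins lies in a granule. Blood cells of the myeloid lineage arise early in the yolk sac and again from progenitors that emerge in the wall of the aorta, and c-kit is carried by those progenitors, by mast cells and by primordial germ cells.

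The values are log2 values made with RMA, and they ran from 1.22 to 13.7 with array medians between 5.42 and 5.52. Kit, the gene of the sorted antigen, was at 8.19 to 8.27 in c-kit-negative and 9.53 to 9.59 in c-kit-positive cells, in the direction of the labels. Ptprc, the gene of CD45, was still measured at 8.21 to 9.40 on the c-kit-negative and 8.37 to 8.60 on the c-kit-positive arrays, although its protein had been selected against. In limma over all genes, 7.41% of the 19937 were called at a Benjamini-Hochberg adjusted p under 0.05, of which those higher in c-kit-positive cells made 2.71% of all genes and those lower 4.70%. The number called higher, 540, dropped to 276, 292 or 323 when c-kit-negative replicate 1, 2 or 3 was left out, and to 310 or 287 when c-kit-positive replicate 1 or 3 was. The arrays of the populations did not overlap for 26.8% of genes, 16.2% with the higher values in c-kit-positive cells and 10.6% with the lower.

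The genes divided. The calprotectin pair fell in c-kit-positive cells, S100a8 by 6.61-fold and S100a9 by 9.36-fold. None of the other 8 passed the test, although Mpo and Cpa3 were higher on every c-kit-positive array than on any c-kit-negative array, by 1.67-fold and 3.11-fold. The azurophil proteases, Hdc, Ms4a2 and Ms4a3 overlapped between the populations. So 2 of 10 were called lower, where 4.70% of all genes were, and 0 of 10 higher, where 2.71% were. An unadjusted p under 0.05 was found for 4 of the 10, beside 21.0% of all genes. The populations did not overlap for 4 of 10, 2 in each direction, beside 26.8% of all genes. The median difference of the 10 genes, c-kit-positive minus c-kit-negative on the log2 scale, was 0.24, beside 0.07 over all genes, and ran from -3.23 to 1.64. In this bulk RNA, fewer cells of a type and less RNA per cell cannot be told apart.

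**Figure D1:**
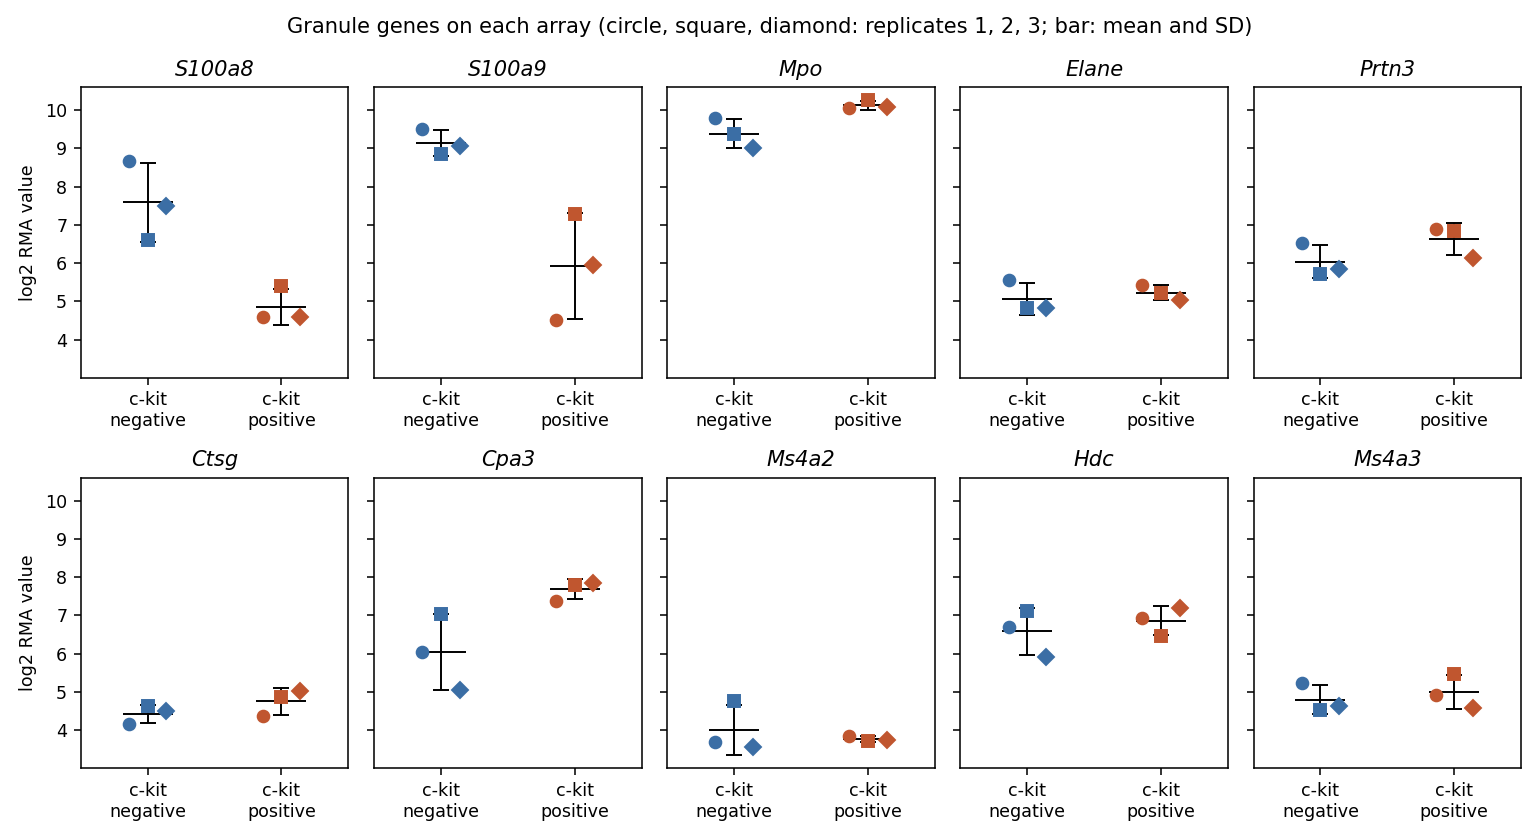
Each panel plots the log2 RMA value of 1 gene on the 3 c-kit-negative (blue) and 3 c-kit-positive (orange) arrays, with circle, square and diamond for replicates 1, 2 and 3 and a bar for the mean and SD. S100a8 and S100a9 lie lower and Mpo and Cpa3 higher on all 3 c-kit-positive arrays, while the populations overlap in the other 6 panels.

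S100a8 (probe set 10493831) was at 8.66, 6.61 and 7.48 in replicates 1, 2 and 3 of the c-kit-negative cells and at 4.59, 5.40 and 4.59 in c-kit-positive replicates 1, 2 and 3. The highest c-kit-positive value, that of replicate 2, lay below the lowest c-kit-negative value, also that of a replicate 2. The means were 7.59 ± 1.03 and 4.86 ± 0.47 (SD, n = 3 each), a difference of -2.72 ± 0.47 (SE; 95% interval -3.80 to -1.65; adjusted p = 0.0105, limma).

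S100a9 (probe set 10499861) was at 9.51, 8.85 and 9.07 in replicates 1, 2 and 3 of the c-kit-negative cells and at 4.52, 7.28 and 5.95 in c-kit-positive replicates 1, 2 and 3. The c-kit-negative arrays stood close together and the c-kit-positive arrays spread widely, replicate 2 being the highest of them for this gene as for S100a8. The means were 9.14 ± 0.34 and 5.92 ± 1.38 (SD, n = 3 each), a difference of -3.23 ± 0.58 (SE; 95% interval -4.56 to -1.89; adjusted p = 0.0130, limma). The fall was 5.76-fold without c-kit-positive replicate 1 and 15.0-fold without c-kit-positive replicate 2, and S100a9 just missed the threshold without c-kit-negative replicate 1 (8.23-fold, adjusted p = 0.0517, limma). S100a8 passed with each array left out, at adjusted p from 0.0046 to 0.0455 (limma). Without variance moderation neither gene passed (adjusted p = 0.161 for S100a8 and 0.175 for S100a9, from limma's linear model).

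S100a8 and S100a9 are neighbours on chromosome 3 with no protein-coding gene between them in RefSeq. Their promoters are shown because they are the only 2 of the 10 genes that fell. Each is the window from 250 bases before to 50 bases after the RefSeq transcription start (GRCm38.p6), 5′ to 3′ on the strand of the gene, S100a8 at chr3:90668821-90669120 (plus strand) and S100a9 at chr3:90695672-90695971 (minus strand). Capitals mark matches, on either strand, to the core letters of 5 factor families of blood cells. For C/EBP, which drives granulocyte genes, the letters searched were TTNNGNAA. For PU.1, an Ets factor of myeloid cells, they were GAGGAA. For RUNX, whose members act when blood cells emerge, they were TGTGGT. For GATA, the family of the mast cell factor Gata2, they were AGATAA. For MYB, the family of the progenitor factor Myb, they were AACNG.
S100a8: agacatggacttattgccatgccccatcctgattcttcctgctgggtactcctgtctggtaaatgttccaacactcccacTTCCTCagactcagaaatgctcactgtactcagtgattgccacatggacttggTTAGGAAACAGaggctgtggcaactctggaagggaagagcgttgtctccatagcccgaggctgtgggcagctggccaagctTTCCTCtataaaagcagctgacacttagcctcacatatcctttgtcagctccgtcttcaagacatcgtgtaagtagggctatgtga
S100a9: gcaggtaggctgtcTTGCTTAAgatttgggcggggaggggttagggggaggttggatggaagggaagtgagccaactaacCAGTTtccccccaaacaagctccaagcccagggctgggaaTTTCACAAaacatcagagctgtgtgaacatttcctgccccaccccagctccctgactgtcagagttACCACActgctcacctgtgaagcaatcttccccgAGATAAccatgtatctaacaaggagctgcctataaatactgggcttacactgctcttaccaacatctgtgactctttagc

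Both windows hold C/EBP letters, 1 match in S100a8 and 2 in S100a9, and of the other 8 genes Ms4a3 alone does. Over 32851 RefSeq promoter windows of 300 bases, 40.7% hold that motif, so its presence does not set the pair apart. In S100a8 the C/EBP and MYB matches overlap by 2 bases, which leaves them as 1 run of capitals. PU.1 letters stand in S100a8 and not in the S100a9 window, and RUNX and GATA letters in S100a9 and not in the S100a8 window. A match is a string of letters and not a measured binding site.

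Mpo (probe set 10380174) was at 9.78, 9.37 and 9.01 in replicates 1, 2 and 3 of the c-kit-negative cells and at 10.04, 10.25 and 10.08 in c-kit-positive replicates 1, 2 and 3. All 3 c-kit-positive values lay above the highest c-kit-negative value. The means were 9.39 ± 0.39 and 10.12 ± 0.11 (SD, n = 3 each), a difference of 0.74 ± 0.20 (SE; 95% interval 0.28 to 1.20) that missed the threshold (adjusted p = 0.0674, limma). It passed without c-kit-negative replicate 1, at 1.91-fold (adjusted p = 0.0291, limma), and with an intensity trend and robust prior (adjusted p = 0.0397, limma); with 1 array left out its adjusted p ran from 0.0291 to 0.168 (limma).

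Like Mpo, the 3 azurophil proteases did not pass, and their differences were not compared with that of Mpo. Prtn3 (probe set 10364529) was at 6.53, 5.72 and 5.85 in c-kit-negative and 6.90, 6.84 and 6.14 in c-kit-positive replicates 1, 2 and 3 (difference 0.59, 95% interval -0.02 to 1.21, adjusted p = 0.256, limma). Its populations overlapped only in that c-kit-positive replicate 3 lay below c-kit-negative replicate 1. Elane (probe set 10364535) was at 5.55, 4.81 and 4.83 in c-kit-negative and 5.42, 5.21 and 5.03 in c-kit-positive replicates 1, 2 and 3 (difference 0.16, 95% interval -0.35 to 0.67, adjusted p = 0.743, limma). Its highest value belonged to c-kit-negative replicate 1, which was also the highest c-kit-negative array for Mpo and Prtn3. Ctsg (probe set 10420261) was at 4.16, 4.63 and 4.49 in c-kit-negative and 4.36, 4.88 and 5.01 in c-kit-positive replicates 1, 2 and 3 (difference 0.32, 95% interval -0.15 to 0.80, adjusted p = 0.426, limma). For Ctsg the same array, c-kit-negative replicate 1, was the lowest of the 6.

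Ms4a3 (probe set 10466224), the progenitor marker, was at 5.23, 4.52 and 4.63 in c-kit-negative and 4.93, 5.46 and 4.58 in c-kit-positive replicates 1, 2 and 3 (difference 0.20, 95% interval -0.41 to 0.80, adjusted p = 0.734, limma). The populations were interleaved, and the sign of the difference turned without c-kit-positive replicate 2 (-0.042). These intervals leave room for changes of up to 0.67 in Elane and 0.80 in Ctsg and Ms4a3 on the log2 scale, so equal levels were not shown.

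Cpa3 (probe set 10497451) had the largest positive difference of the 10. It was at 6.04, 7.05 and 5.04 in c-kit-negative and at 7.38, 7.81 and 7.86 in c-kit-positive replicates 1, 2 and 3. The c-kit-positive arrays were close together and all above the c-kit-negative arrays, which were spread widely. The means were 6.04 ± 1.004 and 7.68 ± 0.26 (SD, n = 3 each), a difference of 1.64 ± 0.43 (SE; 95% interval 0.65 to 2.63) that missed the threshold (adjusted p = 0.0592, limma). It passed without c-kit-negative replicate 2, at 4.41-fold (adjusted p = 0.0093, limma), with an intensity trend and robust prior (adjusted p = 0.0479, limma), and without the dimmest 30 percent of genes (adjusted p = 0.0494, limma). Over the 6 fits that each lack 1 array, its adjusted p was 0.0093 to 0.155 (limma).

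Hdc (probe set 10487238) was at 6.70, 7.13 and 5.92 in c-kit-negative and 6.93, 6.46 and 7.20 in c-kit-positive replicates 1, 2 and 3 (difference 0.28, 95% interval -0.43 to 0.99, adjusted p = 0.668, limma). Among the c-kit-negative arrays it had the order of Cpa3, with replicate 2 highest and replicate 3 lowest, and without replicate 3 the difference was -0.047. Ms4a2 (probe set 10466216), the IgE receptor chain, was at 3.68, 4.76 and 3.57 in c-kit-negative and 3.85, 3.71 and 3.75 in c-kit-positive replicates 1, 2 and 3 (difference -0.24, 95% interval -0.90 to 0.43, adjusted p = 0.706, limma). Again c-kit-negative replicate 2 was the highest of its population, and without it the difference was 0.14. Ms4a2 and Ms4a3 are neighbours on chromosome 19 and Elane and Prtn3 on chromosome 10, in both cases with 0 protein-coding genes between them.

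**Figure D2:**
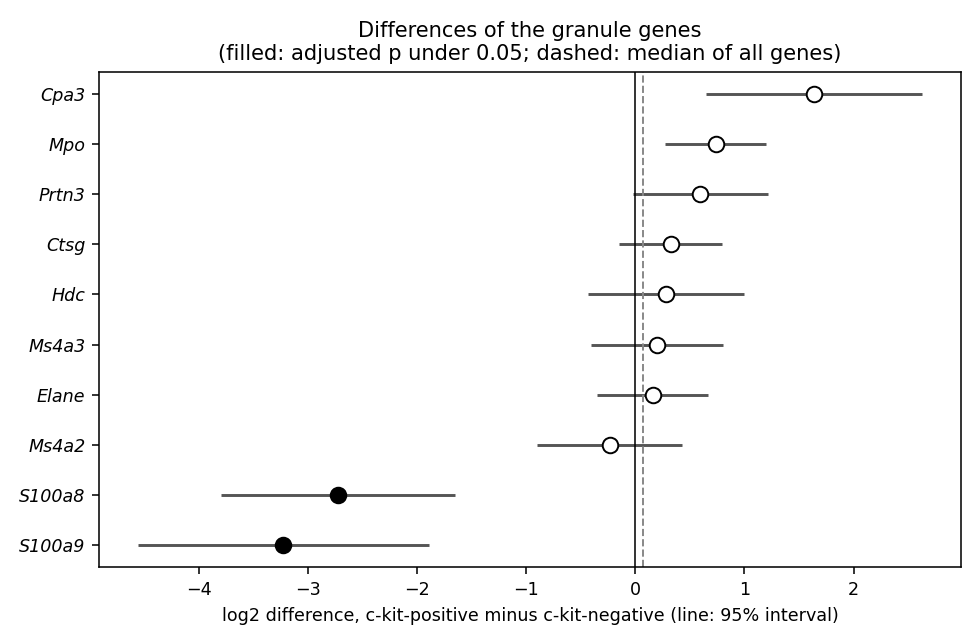
Points are the log2 differences, c-kit-positive minus c-kit-negative, of the 10 genes with their 95% intervals from limma (horizontal axis), the dashed line is the median of all genes (0.07), and filled points passed at an adjusted p under 0.05. Only S100a9 (-3.23) and S100a8 (-2.72) are filled, and besides theirs the intervals of Cpa3 and Mpo lie wholly on one side of 0.

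The promoters of Mpo and Cpa3 are shown because these are the genes whose c-kit-positive arrays all lay above the c-kit-negative ones. The windows and capitals are as above, with Mpo at chr11:87793534-87793833 (plus strand) and Cpa3 at chr3:20242132-20242431 (minus strand).
Mpo: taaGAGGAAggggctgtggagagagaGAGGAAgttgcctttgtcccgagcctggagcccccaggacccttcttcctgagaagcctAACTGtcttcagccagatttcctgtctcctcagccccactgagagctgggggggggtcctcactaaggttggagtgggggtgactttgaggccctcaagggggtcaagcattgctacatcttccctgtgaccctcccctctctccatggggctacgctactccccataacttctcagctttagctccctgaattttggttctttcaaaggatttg
Cpa3: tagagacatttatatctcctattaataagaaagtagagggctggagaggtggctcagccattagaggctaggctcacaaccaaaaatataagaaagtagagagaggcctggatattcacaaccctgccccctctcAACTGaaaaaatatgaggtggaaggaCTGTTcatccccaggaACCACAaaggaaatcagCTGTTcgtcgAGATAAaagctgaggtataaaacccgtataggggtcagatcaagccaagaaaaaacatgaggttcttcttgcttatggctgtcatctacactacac

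The Mpo window holds 2 PU.1 matches and 1 MYB match, and the Cpa3 window 1 RUNX, 1 GATA and 3 MYB matches. All 10 genes had a promoter window. PU.1 letters were found in 6 of them, S100a8, Mpo, Elane, Prtn3, Ctsg and Ms4a3, against 28.3% of all windows. GATA letters were found in 3, S100a9, Cpa3 and Ms4a2, against 11.2%, with 3 matches in Ms4a2 alone. RUNX letters were found in 3, S100a9, Cpa3 and Ctsg, against 16.8%, and MYB letters in 9, against 80.3%. The 3 mast cell genes of the set have no PU.1 letters in these windows, and the azurophil genes no GATA letters, but the mast cell gene Hdc has none either. Most windows of all genes lack PU.1 letters, and most lack GATA letters, so these absences do not set the genes apart.

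**Figure D3:**
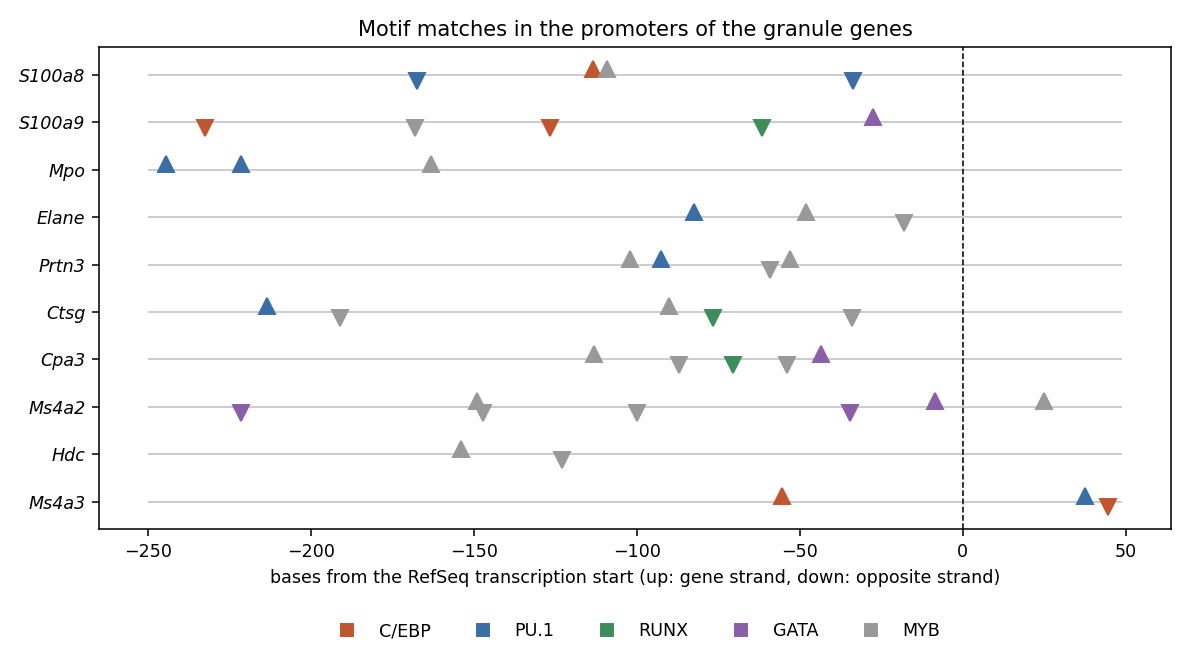
Triangles mark the middle of each motif match by its distance in bases from the RefSeq transcription start (dashed line, horizontal axis) in the promoter windows of the 10 genes, pointing up for the strand of the gene and down for the other, with 1 colour per motif. C/EBP matches stand in S100a8, S100a9 and Ms4a3, and the 3 GATA matches of Ms4a2 are the most in any window.

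Ratios between 2 of the genes within an array were chosen after the values had been seen and are given as a description only. S100a9 over Mpo, as a log2 ratio, was -0.27, -0.52 and 0.06 in c-kit-negative and -5.53, -2.97 and -4.12 in c-kit-positive replicates 1, 2 and 3. The populations did not overlap, and the mean ratio shifted by -3.96. S100a8 over Mpo shifted by -3.46, also without overlap. Neither is a further result: both S100 genes were lower and Mpo higher on every c-kit-positive array, so these ratios could not overlap. S100a9 over S100a8 overlapped, with a shift of -0.50, and Cpa3 over Mpo overlapped as well, with a shift of 0.90.

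The likeness of profiles was measured as the root mean square distance, in log2 units, between 2 genes' values over the 6 arrays, each centred on its own mean; the arrays share their scaling, so a small distance is a description. Among the 10 genes, the nearest pairs were Elane and Ms4a3 (0.25), Elane and Prtn3 (0.27), Prtn3 and Ms4a3 (0.27) and Mpo and Prtn3 (0.29). The distance is not scaled by range, so genes that change little lie near each other whatever their pattern. The range over the 6 arrays was 0.73 for Elane, 0.94 for Ms4a3, 1.18 for Prtn3 and 1.24 for Mpo. It was 4.08 for S100a8 and 5.00 for S100a9. Cpa3 lay nearest to Mpo (0.70) and then to Hdc (0.77), and S100a8 and S100a9 lay nearest to each other (0.75). The widest distances were those from Cpa3 to S100a9 (2.61) and to S100a8 (2.41).

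Over all named genes, the 3 nearest were given for the 7 genes with a range of at least 1 over the 6 arrays. For S100a8 they were Ly86 (distance 0.27), a secreted partner of a Toll-like receptor homologue of B cells and myeloid cells, the protocadherin gene Pcdh18 (0.45) and the VEGF receptor gene Flt1 (0.49). For S100a9 they were Ddah1 (0.47), Robo1 (0.51) and Ptn (0.53). The log2 differences of these 6 genes ran from -2.46 for Ly86 to -3.53 for Ptn. Their fall follows from the choice by distance to 2 genes that fell and is no separate result. For Mpo they were Samsn1, an adaptor of blood cells (0.06), Abhd10 (0.10) and Prorsd1 (0.11), none of which passed. For Cpa3 they were Slc18a2 (0.30), the vesicular monoamine transporter that loads histamine and serotonin into vesicles, Tex13b (0.34) and Zswim1 (0.38). Of these Tex13b rose by 2.95-fold (adjusted p = 0.0144, limma), a call lost without c-kit-positive replicate 1 (2.80-fold, adjusted p = 0.0563, limma). The rise of Tex13b likewise follows from the choice by distance to Cpa3, whose c-kit-positive arrays all lay higher. It is no separate result. For Prtn3 they were Mettl21c (0.06), Mtg1 (0.09) and Arhgap32 (0.12), for Ms4a2 Gpr55 (0.05), Rab3c (0.08) and Hsd17b13 (0.08), and for Hdc Txnl4b (0.09), Gspt2 (0.11) and Snx16 (0.13). None of these last 9 passed.

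The other genes of the same cells were taken from lists. Of 23 measured genes of neutrophil and eosinophil granules and of the NADPH oxidase, 3 fell and none rose (median -0.35). Cybb, the catalytic subunit of the phagocyte oxidase, was at 8.53 ± 0.25 in c-kit-negative and 5.11 ± 0.46 in c-kit-positive cells (SD, n = 3 each). It fell 10.7-fold (adjusted p = 0.000105, limma) and passed with each array left out. Hp, haptoglobin, was 2.87-fold lower (adjusted p = 0.0462, limma) and Ncf1, a cytosolic oxidase subunit, 1.52-fold lower (adjusted p = 0.0472, limma). Both of those calls were near the threshold. Hp was lost without c-kit-negative replicate 1, 2 or 3 or c-kit-positive replicate 1 or 3, and Ncf1 without any 1 of the 6 arrays. Quantile normalization also lost both (adjusted p = 0.0567 for Hp and 0.0564 for Ncf1, limma), and Ncf1 missed as well with median centring (adjusted p = 0.0612, limma) and with the trend and robust prior (adjusted p = 0.0781, limma). In all, 1 gene of the list was called lower without c-kit-negative replicate 2 or c-kit-positive replicate 1 or 3. The differences of 20 of the 23 genes were negative, and 7 were lower without overlap between the populations, beside 10.6% of all genes. An unadjusted p under 0.05 was found for 10 of them, beside 21.0%. Genes that did not pass, named after their values were seen, ranged widely. Prg2, the eosinophil major basic protein, differed by -2.49 with overlapping populations (adjusted p = 0.113, limma), and Olfm4, of the specific granules, was 1.94-fold lower in mean without overlap (adjusted p = 0.056, limma). Ltf, Camp and Ngp, also of the specific granules, differed by -0.01, -0.32 and -0.02.

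Of 20 other mast cell and basophil genes none passed in limma, with 4 at an unadjusted p under 0.05, a share near the 21.0% of all genes (median 0.18), and 2 rose without c-kit-negative replicate 2. The one of smallest p was Slc18a2. It was at 6.39, 6.86 and 5.48 in c-kit-negative and 7.34, 7.43 and 7.68 in c-kit-positive replicates 1, 2 and 3 (2.36-fold, adjusted p = 0.0514, limma). As with Cpa3, c-kit-negative replicate 2 was the highest and replicate 3 the lowest of their population, and the populations did not overlap. Slc18a2 passed without c-kit-negative replicate 2 (2.92-fold, adjusted p = 0.0205, limma). With all arrays it passed after quantile normalization, without the dimmest genes, with probe sets averaged and with the trend and robust prior, at adjusted p of 0.0433 to 0.0498 (limma).

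Of 14 genes that process or pack granule proteins, 1 rose (median 0.16). This was Cst7, cystatin F, an inhibitor of the cathepsins that activate granule proteases, at 6.25 ± 0.72 against 7.74 ± 0.52 (SD, n = 3 each, 2.82-fold, adjusted p = 0.0492, limma). It was lost without c-kit-negative replicate 1 or 3 or c-kit-positive replicate 1 or 2, when no gene of the list was called, and 2 were called without c-kit-positive replicate 3. Ctsc, the cathepsin that trims the azurophil and mast cell proteases, and Srgn, the proteoglycan core that packs them, were chosen after their values were seen. They differed by -1.07 (adjusted p = 0.186, limma) and 0.46 (adjusted p = 0.22, limma).

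Of 20 transcription factors of granulocytes and mast cells, 3 rose and none fell (median 0.11), beside 2.71% higher and 4.70% lower of all genes. Without overlap between the populations 4 were higher and 4 lower, beside 16.2% and 10.6% of all genes. Myb, needed by definitive progenitors, was 3.40-fold higher (adjusted p = 0.0021, limma), Klf5, a zinc finger factor, 2.20-fold (adjusted p = 0.0122, limma) and Gata2, a factor of progenitors and mast cells, 1.83-fold (adjusted p = 0.0321, limma). The call of Gata2 was lost when c-kit-negative replicate 1, 2 or 3 or c-kit-positive replicate 1 or 2 was left out. Among the factors of the granulocyte line, named after their values were seen, Cebpa differed by -0.40, Cebpe by 0.13 and Spi1, which encodes PU.1, by 0.46, and none of these 3 passed. Of 10 cytokine receptors of these cells 1 rose, Flt3, the receptor of multipotent progenitors, by 1.84-fold (adjusted p = 0.0128, limma; list median 0.10).

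**Figure D4:**
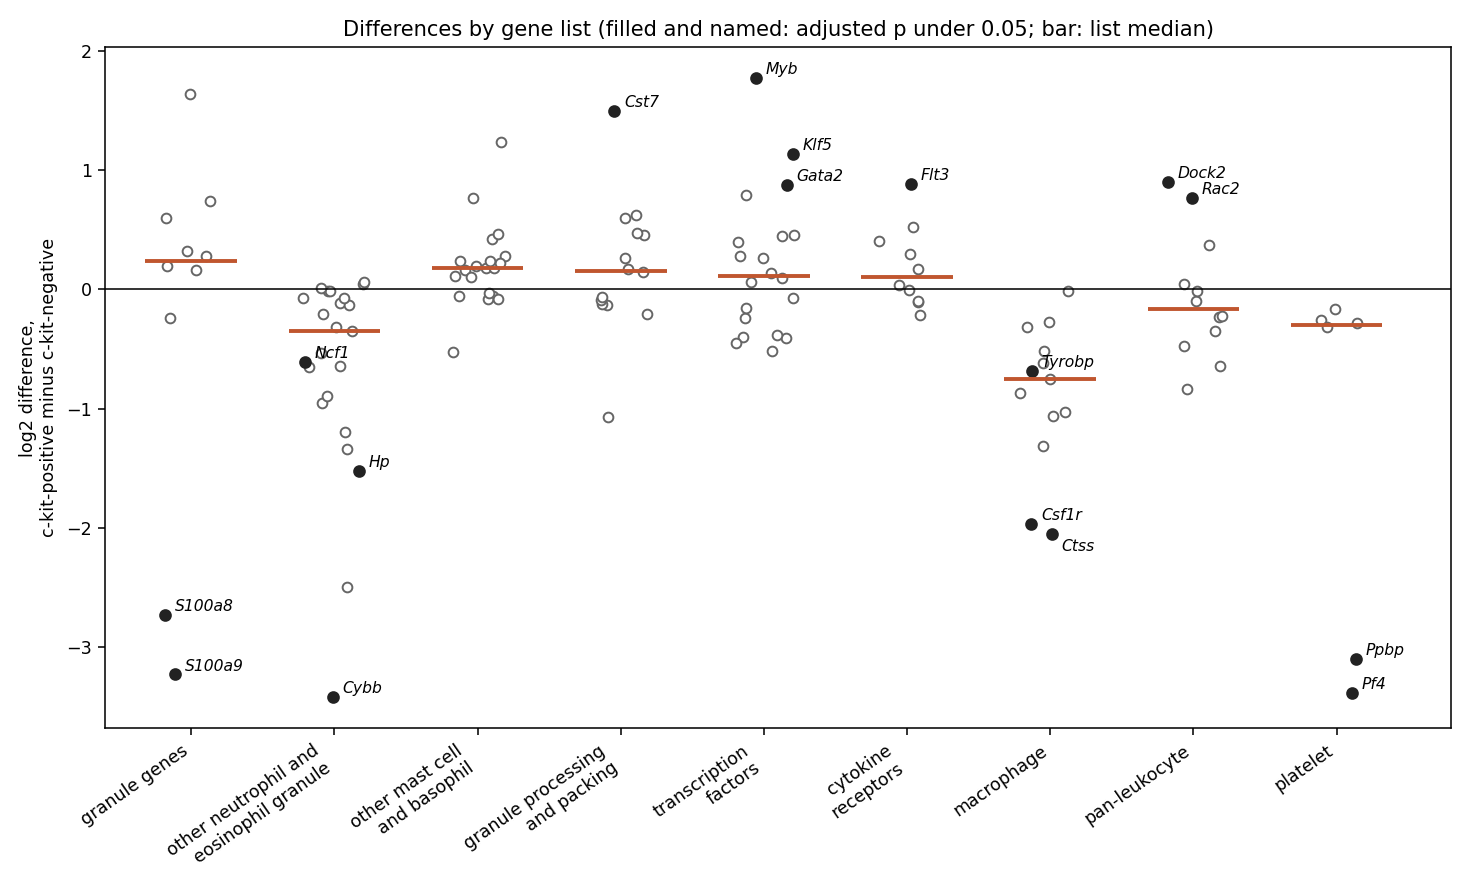
Each point is the log2 difference, c-kit-positive minus c-kit-negative (vertical axis), of 1 gene in the 10 granule genes and 8 further lists, with filled, named points for adjusted p under 0.05 and an orange bar for the list median. The calls of the granule genes, the other neutrophil genes, the macrophage and the platelet markers lie below 0, and those of the packing genes, transcription factors, receptors and pan-leukocyte genes above it.

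Markers of other cells moved on the same arrays. All 13 measured macrophage markers had the lower mean in c-kit-positive cells (median -0.75), and 3 fell, Ctss by 4.14-fold, Csf1r by 3.91-fold and Tyrobp by 1.61-fold. Leaving out c-kit-positive replicate 1 left 1 call, and that of Tyrobp was lost whichever of the 6 arrays was left out. The mean log2 value of the macrophage list was 6.22 to 7.32 on the c-kit-negative arrays, highest in replicate 1, and 5.71 to 5.81 on the c-kit-positive arrays. S100a8 and S100a9 were likewise highest in c-kit-negative replicate 1; the part of macrophages in their fall was not tested. S100a8 fell by 2.18 on the log2 scale without that array, and S100a9 was 8.23-fold lower. Of 6 measured platelet markers 2 fell, Pf4 (10.4-fold) and Ppbp (8.54-fold), with list means of 6.68 to 7.82 against 5.83 to 6.27. Only 1 platelet marker fell without c-kit-negative replicate 2 or 3 or c-kit-positive replicate 1. The order among the c-kit-negative arrays was another one here, with replicate 3 highest and replicate 1 lowest.

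Of 12 pan-leukocyte genes 2 rose, Rac2 (by 0.77 on the log2 scale) and Dock2 (by 0.90), and none fell. The other way, 8 of the 12 differences were negative, beside 7760 of 19937 over all genes (medians -0.16 and 0.07). Without overlap 3 of the 12 were lower, beside 10.6% of all genes. The list means were 8.23 to 8.74 against 8.35 to 8.39. Dock2 was lost without c-kit-negative replicate 1, 2 or 3 or c-kit-positive replicate 1 or 2, which left 1 call. Of 10 lymphoid genes Cd3g rose and Il7r and Ebf1 fell (median 0.18), of 7 erythroid genes the embryonic globins Hbb-y, Hba-x and Hbb-bh1 fell (median -0.08), and of 10 mesenchymal genes 7 fell (median -1.30). In the lymphoid list 0 rose without c-kit-positive replicate 2 or 3, 1 fell without c-kit-negative replicate 2 or any c-kit-positive replicate, and in the erythroid list 1 rose without c-kit-positive replicate 1. All 12 pan-endothelial genes fell (median -2.50) and 9 of 11 germ cell genes rose (median 1.13). Neither overlapped on list means, at 8.73 to 8.83 against 5.71 to 6.01 for endothelium and 6.92 to 6.97 against 8.16 to 8.40 for germ cells. The part of these cells in the differences of the 10 granule genes was not tested.

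**Figure D5:**
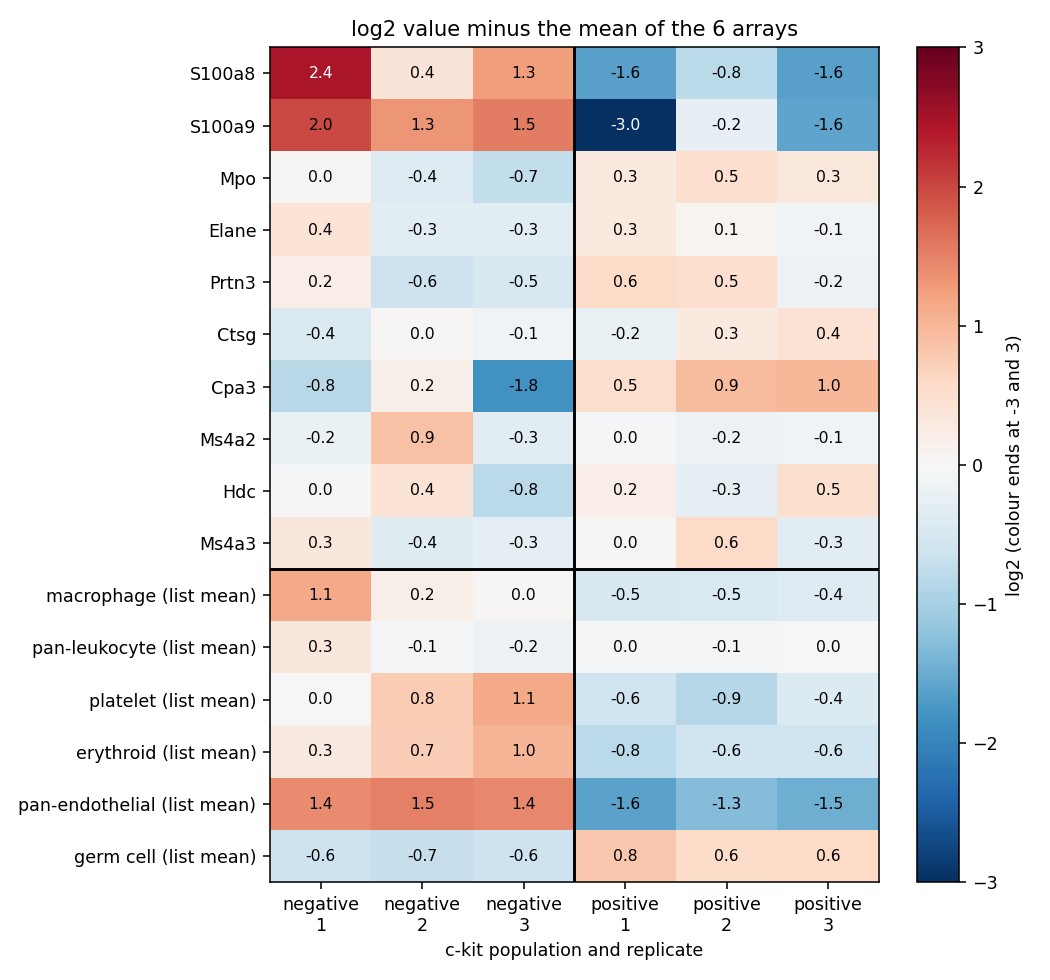
Each cell gives a log2 value on 1 array minus the mean over the 6 arrays, for the 10 genes (above the line) and for the mean of 6 marker lists (below it), with the c-kit-negative arrays left of the vertical line. S100a8, S100a9 and the macrophage mean are highest in c-kit-negative replicate 1, whereas the platelet and erythroid means are highest in c-kit-negative replicate 3, where Cpa3 and Hdc are lowest.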

How the data were processed

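Total RNA of 6 sorted samples, 3 a population, was measured with 1 array each. Per the labels' protocols, 5 ng of RNA was amplified with a whole-transcript kit and labelled with biotin, which can distort ratios, and background on an array compresses the changes of dim genes. The deposited values are log2 values that the authors made with RMA, per the submitters' processing notes; version and settings: not given in the sources used here. They carry no detection calls, so no gene is called absent, and no depth applies to arrays, whose number limits the precision.

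Of 34760 probe sets, 21640 have 1 gene symbol in the platform annotation, 1321 have several and 11799 are not listed. Of the 21640, 21553 were found by Entrez identifier in the RefSeq gene table, with 0 symbols changed. For genes with several probe sets the one with the highest mean was used; each of the 10 genes had 1. The test was that of limma 3.58.1 (R 4.3.3; lmFit, eBayes, two-sided, no block, no filter), adjusted over 19937 genes by Benjamini-Hochberg, threshold 0.05; the fit was tested on simulated data. Differences are c-kit-positive minus c-kit-negative; folds are 2 to the power of their size. Promoters come from RefSeq (GRCm38.p6). Figures were drawn with matplotlib 3.10.9.

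The 10 genes and the lists were chosen with earlier results of these data known. Named are the 10 genes, the sort genes, up to 4 genes a list past the threshold by smallest p (otherwise the one of smallest p), and the 3 nearest profiles of genes with a range of at least 1. Outside that rule, Prg2, Olfm4, Ltf, Camp, Ngp, Ctsc, Srgn, Cebpa, Cebpe and Spi1 were named after their values were seen. The mesenchymal, endothelial and germ cell lists are given by counts. Pecam1, also of the sort gate, was at 10.02 ± 0.02 and 9.13 ± 0.16 (SD, n = 3 each). As alternatives, values were centred on medians or quantile normalized, the dimmest 30 percent of genes were dropped, probe sets were averaged, the variance prior was made robust with a trend or removed, the replicate number was a block, and each array was left out. The ratios within an array were chosen after the values were seen.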

Additional observations from a re-analysis of the deposited data

How the results depend on the processing

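The directions of S100a8 and S100a9 held under every alternative. Both passed under all of them except no variance moderation (differences -2.72 and -3.23, adjusted p = 0.161 and 0.175, limma's linear model), when 0 of the 10 genes were lower, 66 and 216 of all genes were higher and lower, and 5 and 11 genes of the other lists together, and, for S100a9, the fit without c-kit-negative replicate 1. Cpa3, at 1.64 in each of the next 3 fits, passed without the dimmest genes (adjusted p = 0.0494, limma; Ctsg, Ms4a2 and Ms4a3 were filtered out), with the trend and robust prior (0.0479) and with the replicate block (0.0457). Mpo, at 0.74, passed with the trend and robust prior (0.0397). Of the 10 genes, 1, 2 and 1 were thus called higher in those 3 fits. With 1 array left out, differences ran from -3.91 to -2.52 for S100a9, 0.55 to 0.93 for Mpo, 1.14 to 2.14 for Cpa3, -0.45 to 0.14 for Ms4a2, -0.047 to 0.55 for Hdc and -0.042 to 0.41 for Ms4a3. The sign turned for Ms4a2 without c-kit-negative replicate 2 (0.14), for Hdc without c-kit-negative replicate 3 (-0.047) and for Ms4a3 without c-kit-positive replicate 2 (-0.042). In the same fits 0 to 1 of the 10 genes were higher, 1 to 2 lower, and 276 to 369 of all genes higher. The cause was not tested; these fits have fewer samples.

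Whether equal replicate numbers mark paired samples was not settled. Deviations from the population means correlated across genes at 0.001, 0.024 and 0.059 for equal numbers, the last being the highest of all pairs. For c-kit-negative replicate 2 the best correlation was with c-kit-positive replicate 1 (0.036). Within a population of 3 arrays the deviations cancel, so these correlations constrain each other and cannot exclude a pairing. The replicate block moved the calls of all genes from 540 to 476 higher and from 937 to 879 lower, and among the 10 genes it changed the call of Cpa3 alone; of the genes named from other lists it lost Hp (adjusted p = 0.075, limma) and Ncf1 (0.069). Quantile normalization lost Cst7 (0.0521) and median centring Tyrobp (0.0547). With 3 arrays a population and unmeasured background, changes below about the size of the intervals were not detectable.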
